A study of Mus musculus with 2 samples.

Results

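The 42 genes described here act in the last part of the cell cycle, from the entry into mitosis to the separation of the daughter cells. They were taken as a fixed list of gene columns, and each of the 42 had a column among the 27706 gene columns found in the deposited tables. The list itself used no measured value, but it was set with earlier results of these data known. Single cells of bone marrow from which mature lineage-positive cells had been removed with magnetic beads were captured on the BD Rhapsody system and sequenced, from 2 groups of ICR mice, an outbred strain, with 1 library in each group. The hypoxia mice lived for 13 days in an altitude chamber at 52.93 kPa, a pressure that stands for 5000 m, with oxygen at 19.5%. The control mice were killed when they reached the study site, so time, handling and the age gained in the chamber cannot be told apart from hypoxia. Mice of both groups were given as 7 to 8 weeks old, no genetic change was listed for either, and how many mice each library came from is not stated in the sources used here.

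A cell doubles its DNA in S phase, checks it in G2 and divides in mitosis. Cdk1 bound to A-type and B-type cyclins drives the entry into mitosis, Cdc25 phosphatases switch Cdk1 on, and Polo and Aurora kinases build the spindle. The spindle checkpoint then holds the anaphase-promoting complex until every chromosome is attached, after which cyclin B is destroyed and the cell splits. Transcripts of these genes accumulate in late S phase, G2 and mitosis, so their summed level in a group of cells follows the share of cells in those phases, and in bone marrow they are high in the dividing precursors of red cells.

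Many genes of this kind share short promoter elements, the cell cycle homology region (CHR) and the CCAAT box. The letters TTTGAA, searched on both strands as the CHR, stood in the first listed promoter of 26 of the 36 members that have an entry in the RefSeq promoter table (72.2%), against 4893 of all 27025 promoters (18.1%). The letters CCAAT, also on both strands, stood in 28 of the 36 (77.8%), against 10248 of all promoters (37.9%). Both occurred together in 22 members (61.1%), against 1925 of all promoters (7.12%). Each window held 300 bases, 250 before the start and 50 after it, and boxes on opposite strands that overlap were each counted. Ccna2, Tpx2, Aurkb, Smc4, Kif20a and Cdc25c had no entry.

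The 4 promoters below belong to members that behaved differently within the cycling cells described further on. Ube2c and Nusap1 differed strongly between the cells richest and poorest in the other members, and Cks1b and Cenpa differed little. Capitals mark TTTGAA and CCAAT on either strand, and each is read 5′ to 3′ on the gene's strand (GRCm38.p6, RefSeq). Ube2c (chr2:164769679-164769978, plus strand) held 1 CHR and 6 CCAAT boxes. No match was found for Nusap1 (chr2:119618048-119618347, plus strand). Cks1b (chr3:89418242-89418541, minus strand) held 2 CHR and 4 CCAAT boxes, and Cenpa (chr5:30666636-30666935, plus strand) held 1 CHR and 2 CCAAT boxes. The letters thus did not sort these 4 members by their behaviour.
Ube2c: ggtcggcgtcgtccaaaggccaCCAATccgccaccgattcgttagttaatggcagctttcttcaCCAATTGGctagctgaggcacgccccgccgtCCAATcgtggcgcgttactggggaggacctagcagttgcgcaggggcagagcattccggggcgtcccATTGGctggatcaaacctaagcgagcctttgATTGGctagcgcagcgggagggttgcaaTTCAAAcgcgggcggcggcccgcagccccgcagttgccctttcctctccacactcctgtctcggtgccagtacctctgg
Nusap1: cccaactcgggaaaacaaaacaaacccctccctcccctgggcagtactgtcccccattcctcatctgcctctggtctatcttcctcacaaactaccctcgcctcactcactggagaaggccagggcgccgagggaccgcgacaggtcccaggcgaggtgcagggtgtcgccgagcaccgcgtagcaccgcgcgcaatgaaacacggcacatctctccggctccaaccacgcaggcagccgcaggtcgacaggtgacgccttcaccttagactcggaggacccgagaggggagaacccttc
Cks1b: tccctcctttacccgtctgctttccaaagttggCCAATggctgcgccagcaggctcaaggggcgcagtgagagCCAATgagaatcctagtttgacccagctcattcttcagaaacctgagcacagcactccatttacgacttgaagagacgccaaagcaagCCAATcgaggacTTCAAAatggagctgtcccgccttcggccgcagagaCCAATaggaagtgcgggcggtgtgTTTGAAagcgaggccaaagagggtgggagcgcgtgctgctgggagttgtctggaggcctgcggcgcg
Cenpa: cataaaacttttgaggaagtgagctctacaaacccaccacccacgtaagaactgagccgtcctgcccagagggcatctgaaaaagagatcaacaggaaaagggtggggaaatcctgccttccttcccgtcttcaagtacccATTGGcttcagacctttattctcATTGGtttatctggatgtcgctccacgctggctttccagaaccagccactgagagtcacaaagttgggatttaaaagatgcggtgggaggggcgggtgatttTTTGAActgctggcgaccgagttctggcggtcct

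For each class and library, the UMIs (unique molecules) of a gene were added up over cells and scaled by the class total to CPM, counts per 1000000. The deposited tables held 6406 hypoxia cells with 137504361 UMIs and 3956 control cells with 121415081 UMIs, and 6280 and 3914 cells were kept after filters and doublet calls. The median kept cell had 21345 UMIs in hypoxia and 32166 in control. Cell indices found in both libraries numbered 23. Cells were put into classes by marker genes, none of them a member, and 11 classes with 5968 hypoxia and 3567 control cells are described. Each class is a range of marker levels, not a cell type by itself. Gate genes are high in their own class by construction, which is no check of the class. Pf4 stood at 9298 CPM in hypoxia and 8792 CPM in control in the megakaryocyte class. Hlf stood at 421 and 430.1 CPM in the stem and multipotent progenitor (HSC/MPP) class. The HSC/MPP class, however, also held myeloid transcripts, with Mpo at 3789 CPM in hypoxia and 3638 CPM in control, and 80.7% of its hypoxia and 90.6% of its control cells passed another class's gate as well. Such overlap was wider in the basophil class, where 99.9% of the hypoxia cells and each of the 302 control cells passed another gate, and it was 63.9% and 80.1% in the monocyte class. In the granulocyte progenitors it was 3.91% and 10.2%, and at most 1.01% in either library from the CFU-E stage to the globin-high cells. In the other 4 classes it lay between 33.3% and 65.6%. A cell was put in the first gate it passed, in a fixed order.

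Each value below has no replicate. Intervals are exact 95% intervals that cover counting error only, treat each UMI as independent, and leave out variation between cells, mice and preparations. A ratio is hypoxia over control. The log2 ratio adds 10 CPM to both sides, which draws low genes towards 0, and a gene was measured in a class where both libraries together held at least 50 of its UMIs. Members were counted as higher or lower from 1.5-fold on that scale. In bulk sums of a class, fewer dividing cells and less RNA of these genes per dividing cell cannot be told apart.

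**Figure D1:**
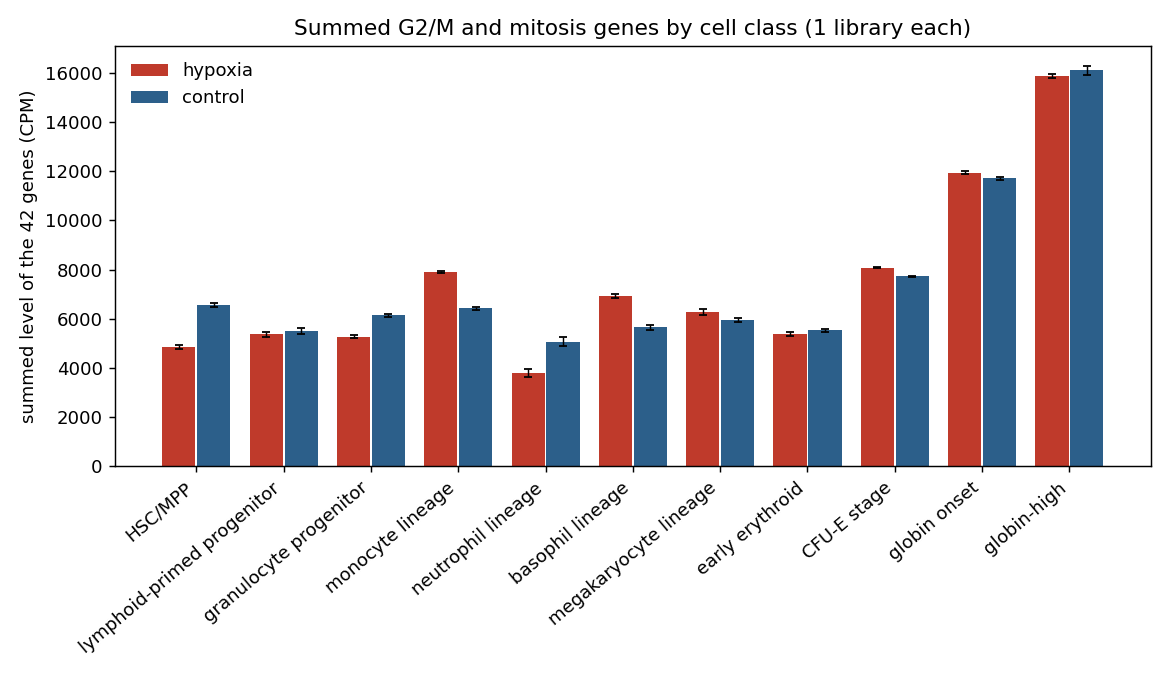
Summed level of the 42 genes (y axis, CPM) in 11 marker-gated classes (x axis), hypoxia bars left of control bars. Error bars are exact 95% Poisson intervals for counting error. Hypoxia stood at 4862 against 6553 CPM in the HSC/MPP class and at 7900 against 6427 CPM in the monocyte class, while the erythroid stages differed by less than 5%.

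The red cell series carried most of the members' transcripts, and their level climbed with globin. The members summed to 5366 CPM in hypoxia and 5530 CPM in control in early erythroid cells (Gata2 still present), 8072 and 7739 CPM at the CFU-E stage (erythroid colony-forming cells, with little globin and no Gata2 above the limit), 11945 and 11708 CPM at globin onset and 15886 and 16106 CPM in globin-high cells. Of the 42 members, 40 in hypoxia and 41 in control were highest in globin-high cells, and 41 in hypoxia and 40 in control were lowest in early erythroid cells. The exceptions were the spindle checkpoint kinase Bub1b, highest at globin onset in hypoxia, Cks1b, a small Cdk-binding subunit, highest at the CFU-E stage in both libraries and lowest in globin-high cells in control, and Cdc25b, lowest at the CFU-E stage in both libraries.

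The steepness differed between members. Cdc25b, a phosphatase that activates Cdk1, had the widest range, with 22.3, 4.83, 21.9 and 184 CPM over the 4 stages in hypoxia and 12.7, 5.41, 24.0 and 129.5 CPM in control. Its highest stage was 38.1 times its lowest in hypoxia and 23.9 times in control. Mki67, which coats mitotic chromosomes and serves as a proliferation marker, stood at 317, 517, 1126 and 1875 CPM in hypoxia and 346, 490.1, 946 and 1725 CPM in control, a range of 5.91 and 4.99 times. Birc5 (survivin), a subunit of the chromosomal passenger complex, ranged over 6.23 times in hypoxia and 4.22 times in control. At the other end, Cks1b spanned 1.31 times in each library and Cks2, its paralogue, 1.36 times in hypoxia and 1.52 times in control.

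When erythroid cells were binned by globin UMIs per 10000 UMIs, the members climbed in every bin. They summed to 7345 CPM in hypoxia and 7078 CPM in control below 1 globin UMI per 10000, to 11027 and 10890 CPM between 10 and 30, and to 15381 and 15204 CPM between 100 and 300. The ratio lay between 0.960 and 1.04 in the 6 bins below 300. In the last bin it was 0.851 (18531 against 21780 CPM), and that bin held 113 hypoxia but 27 control cells, of lower median depth (12245 and 7655 UMIs). The 45 S phase genes, by contrast, summed to 16562 CPM in hypoxia and 13449 CPM in control there, and to 13710 and 12002 CPM between 30 and 100. Binned in this way, the hypoxia library therefore had about the same level of the mitotic genes at a given globin level and a higher level of S phase genes in the 4 bins from 10 upwards.

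**Figure D2:**
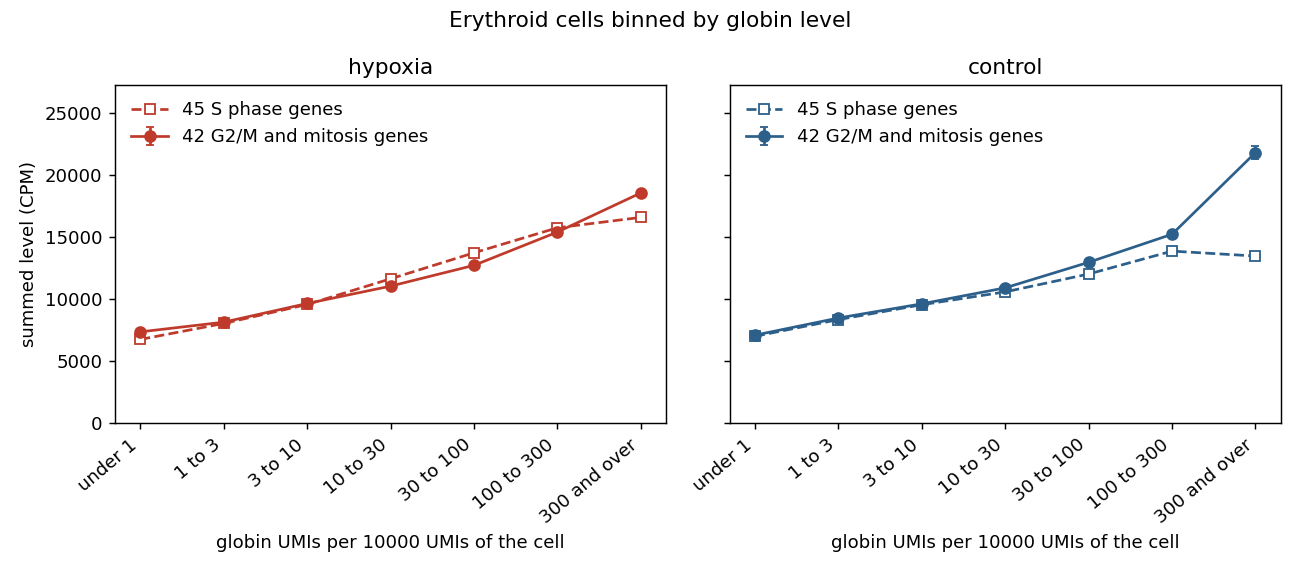
Summed level (y axis, CPM) of the 42 genes (filled circles, with 95% counting intervals) and of 45 S phase genes (open squares) in erythroid cells binned by globin UMIs per 10000 UMIs (x axis), hypoxia left and control right. The 42 genes reached 18531 CPM in hypoxia and 21780 CPM in control in the last bin.

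Between the libraries the summed members were close at each erythroid stage, and few single members passed 1.5-fold. The ratio was 0.970 (0.952 to 0.989) in early erythroid cells, 1.04 (1.039 to 1.047) at the CFU-E stage, 1.02 (1.013 to 1.028) at globin onset and 0.986 (0.974 to 0.998) in globin-high cells. No member was higher by 1.5-fold at any of these stages, where 7.13% of all genes tested in early erythroid cells, 2.14% at the CFU-E stage, 2.64% at globin onset and 5.42% in globin-high cells were. Cenpf was the 1 member lower by 1.5-fold in early erythroid, globin onset and globin-high cells, and 0 were at the CFU-E stage, against 3.73%, 1.74%, 3.07% and 1.25% of all genes. With TMM factors, a scaling that sets aside the most different genes, the summed log2 ratio turned from 0.061 to -0.054 at the CFU-E stage and from 0.029 to -0.017 at globin onset. It turned from -0.044 to 0.045 in early erythroid cells with doublets kept, and from -0.020 to 0.0087 in globin-high cells with gate minimums halved.

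Beneath those even sums, several members kept 1 direction over the 4 stages, by more than 1.5-fold for Cenpf at 3 of them and by less for the others, and the members named here were picked after their values were seen. Cenpf, a large kinetochore protein (chromosome 1, 189640606 to 189688086 on GRCm38), had 62.6, 88.1, 125 and 199.6 CPM from early erythroid to globin-high cells in hypoxia and 114, 136, 227 and 397 CPM in control. Every stage of the hypoxia library was thus below the same stage of control, with ratios of 0.551, 0.648, 0.550 and 0.503. Aurka, the kinase that matures the spindle poles, had 29.7, 54.2, 94.7 and 137 CPM in hypoxia and 41.2, 71.2, 128 and 179 CPM in control, a log2 ratio between -0.39 and -0.34.

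Some members stood the other way. Cenpa, the histone H3 variant that marks centromeres (chromosome 5, 30666777 to 30674830), had 365, 507, 505 and 547 CPM in hypoxia and 256, 363, 363 and 389.6 CPM in control. Its log2 ratio stayed between 0.47 and 0.50, and between 0.36 and 0.46 with TMM factors. Ccnb2, the second B-type cyclin, had 99.4, 148, 249.7 and 367 CPM in hypoxia and 73.5, 117, 197 and 299 CPM in control. The chromokinesin gene Kif4 had 38.2, 62.2, 103 and 152 CPM in hypoxia and 29.5, 49.4, 75.2 and 109 CPM in control.

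The paired cyclins therefore parted. Ccnb1, the main mitotic B-type cyclin, had 75.6, 152, 236 and 304 CPM in hypoxia and 115, 174, 284 and 315 CPM in control, below control at each stage, whereas Ccnb2 was above it at each stage. In all, 14 members had a log2 ratio above 0 at all 4 stages and 8 had one below 0, which became 8 and 15 with TMM factors. The other 6 members below 0 throughout were Cdk1, Prc1, Smc2, Smc4, Kif20b and Ccnb1. Of all genes tested, 54.4%, 58.6%, 56.6% and 57.1% were above 0 from early erythroid to globin-high cells. The share of all genes that kept the same direction over the 4 stages was not worked out, and the stages share the same pair of libraries. The counts of 14 and 8 therefore do not set the members apart from other genes. Plk1, the Polo kinase, was within 0.09 of 0 on the log2 scale at each stage, with 59.4, 124, 179 and 214 CPM in hypoxia and 55.6, 116, 173 and 206 CPM in control.

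**Figure D3:**
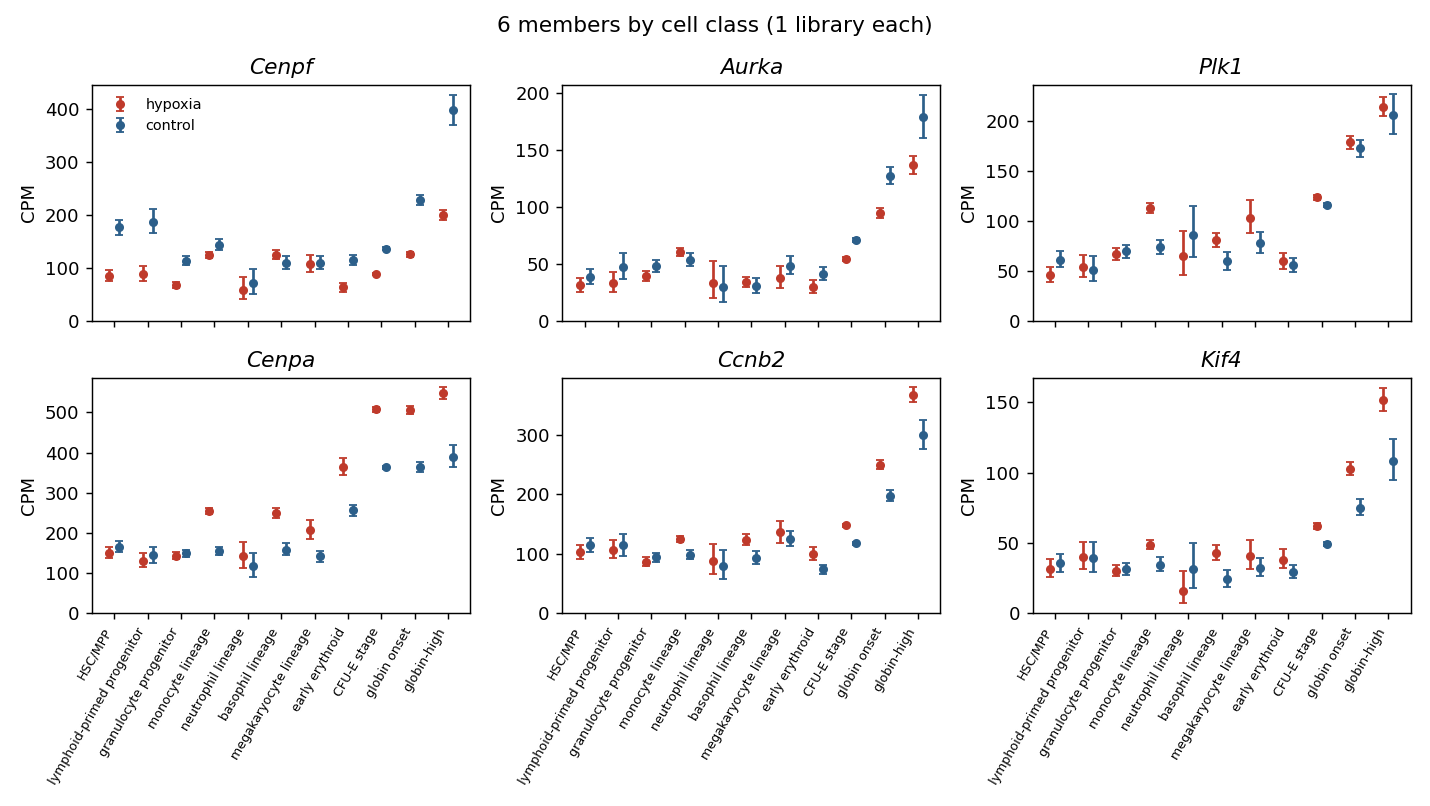
Level (y axis, CPM) of 6 members in 11 classes (x axis), hypoxia points left of control points, with exact 95% Poisson intervals. Cenpf and Aurka lay lower in hypoxia in the 4 erythroid stages, Cenpa, Ccnb2 and Kif4 lay higher, and Plk1 differed little.

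By role, 2 groups stood above control at the CFU-E stage, the spindle and motor genes and the genes of the spindle checkpoint and anaphase-promoting complex. The 9 spindle and kinesin motor genes summed to 963 CPM in hypoxia and 868 CPM in control there (ratio 1.11, 1.097 to 1.121), with Hmmr, which focuses spindle poles, at 178 and 145 CPM and Kif11, the motor that separates the poles, at 125 and 107 CPM. The 7 genes of the spindle checkpoint and the anaphase-promoting complex summed to 1096 and 971 CPM (ratio 1.13, 1.117 to 1.140). Among them Ube2c, the ubiquitin-conjugating enzyme of that complex, had 478 CPM in hypoxia and 391 CPM in control, while Bub1b had 37.7 and 49.4 CPM. Most of the difference of this group was thus in Ube2c, which is not a checkpoint gene. The 4 chromosome structure genes, Mki67, Top2a and the condensin subunits Smc2 and Smc4, summed to 2291 and 2303 CPM there. In early erythroid cells that group was lower, at 1525 CPM in hypoxia and 1704 CPM in control (0.895, 0.865 to 0.927). The spindle and motor group was also above control at the other 3 stages. Its ratio was 1.08 in early erythroid, 1.11 in globin onset and 1.09 in globin-high cells. TMM factors lower a summed log2 ratio by 0.12, 0.11, 0.046 and 0.023 over the 4 stages. In early erythroid cells that is about as much as the group's excess. At the CFU-E stage it is most of the excess of both groups that stood above control there. Nusap1, Tpx2, Hmmr, Kif11, Kif20a and Kif4 were above control at all 4 stages, Kif2c at 2, Kif23 at 1 and Kif20b at 0. With TMM factors Tpx2 and Kif4 stayed above at all 4, Nusap1, Hmmr, Kif11 and Kif20a at 3, Kif23 at 1 and Kif2c and Kif20b at 0.

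At the CFU-E stage the lowest log2 ratios were those of Cenpf, Aurka and Bub1b (-0.57, -0.34 and -0.32), and the highest those of Cenpa, Anln and Ccnb2 (0.47, 0.40 and 0.31). Anln, the actin binder of the cleavage furrow, had 84.5 CPM in hypoxia and 61.8 CPM in control. Cdk1, Top2a and Cdc20 lay closer to control. From early erythroid to globin-high cells, Cdk1 had 130.0, 242, 378 and 487 CPM in hypoxia and 166, 251, 402 and 541 CPM in control. Top2a, the topoisomerase that untangles chromosomes, had 479, 694, 1049.8 and 1338 CPM in hypoxia and 523, 642, 1014 and 1408 CPM in control, and Cdc20, the activator of the anaphase-promoting complex, 81.4, 137, 191 and 238 CPM in hypoxia and 90.0, 127, 195 and 252 CPM in control. Top2a and Cdc20 thus changed sides between stages, while Cdk1 stayed below control.

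Cenpf was the lowest member and Cenpa among the 3 highest at each of the 4 stages. In globin-high cells the lowest log2 ratios were those of Cenpf, Bub1b (43.5 against 67.8 CPM, -0.54) and Aurkb, the kinase of the chromosomal passenger complex (169.7 against 224 CPM, -0.38). The highest there were those of Cenpa, Cdc25b (184 against 129.5 CPM, 0.47) and Kif4. At globin onset Cenpf, Aurka and Bub1b (47.2 against 64.7 CPM) were lowest and Cenpa, Kif4 and Anln (103 against 77.2 CPM) highest, with Mki67 at a log2 ratio of 0.25. In early erythroid cells Ccnb1 (-0.54) and Birc5 (155 against 213 CPM, -0.43) were lowest after Cenpf, and Anln (71.7 against 45.01 CPM, 0.57), Cdc25b (0.51) and Cenpa (0.50) were highest.

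**Figure D4:**
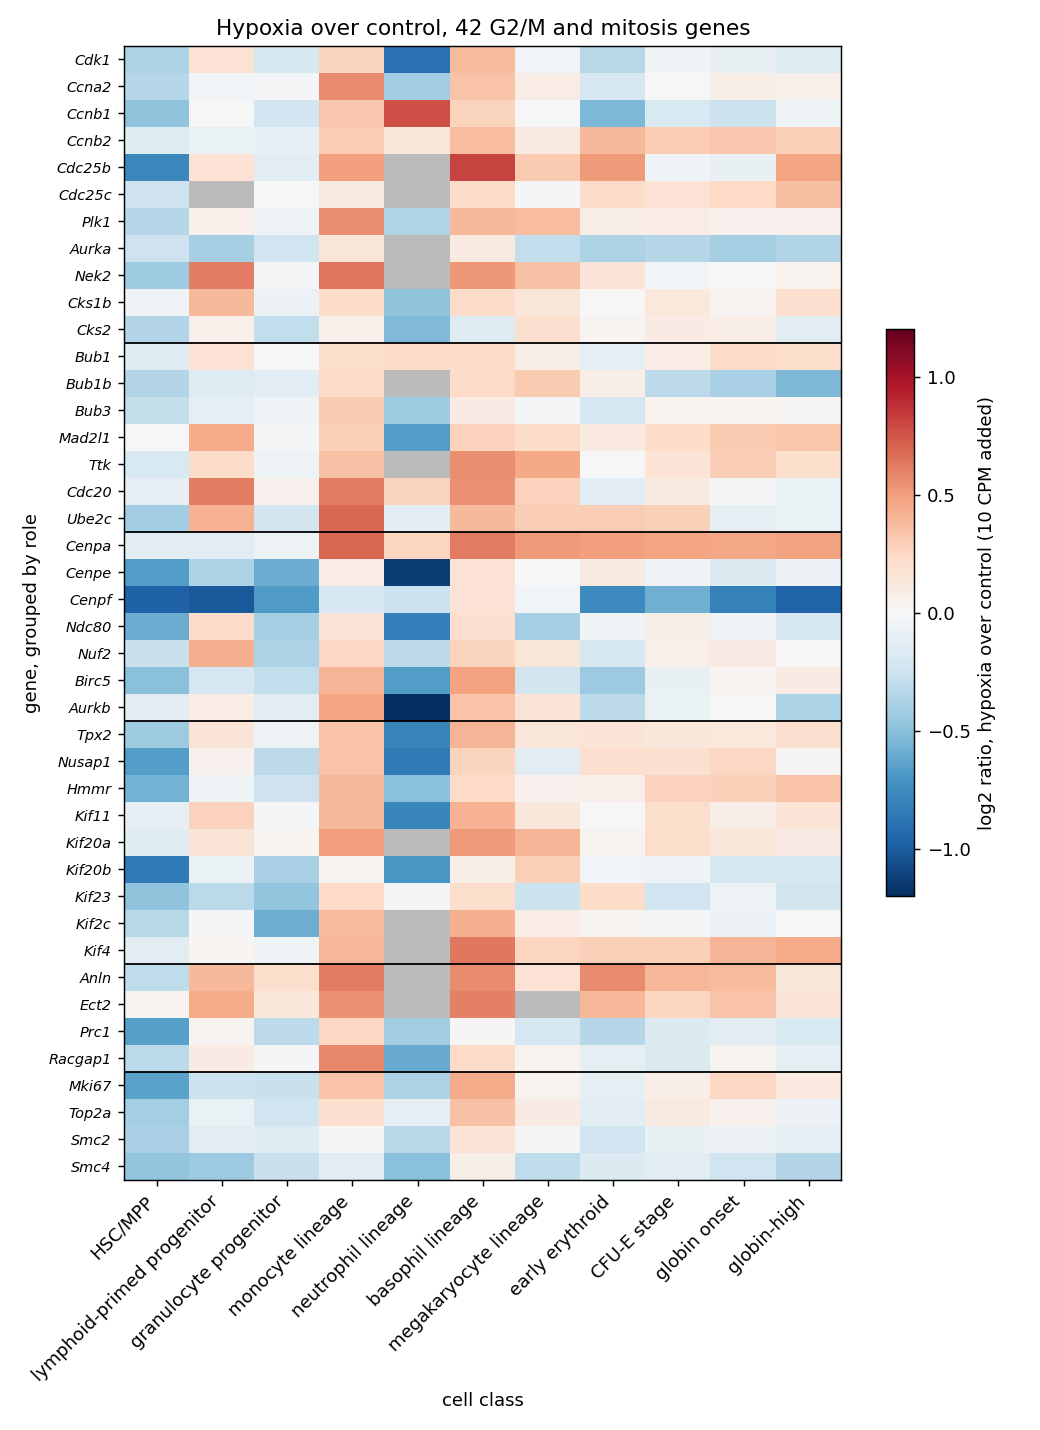
Log2 ratio of hypoxia over control with 10 CPM added (colour scale, red higher and blue lower in hypoxia) for 42 genes in rows, grouped by role with black lines, and 11 classes in columns. Grey cells had under 50 UMIs over both libraries. The HSC/MPP column is blue for 41 of 42 genes and the basophil column red for 41 of 42.

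In the HSC/MPP class the members were lower in the hypoxia library nearly throughout. They summed to 4862 CPM in hypoxia and 6553 CPM in control, a ratio of 0.742 (0.727 to 0.757), and 41 of 42 had a log2 ratio below 0, with a median of -0.35 against a median of 0.010 over the 9464 genes tested. Of the 42 members 8 were lower by 1.5-fold, where 2.02% of all genes were, and 0 were higher, where 2.13% were. Of all genes tested in the class, 51.7% had a log2 ratio above 0. The counting intervals of Top2a and Cdk1, among other members, lay below 1.

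Cenpf, Kif20b and Cdc25b had the lowest log2 ratios. Cenpf had 85.0 CPM in hypoxia and 176 CPM in control (ratio 0.483, 0.417 to 0.559), and Kif20b, a kinesin of the midzone and midbody, 68.7 and 132 CPM (0.522, 0.442 to 0.615). Cdc25b had 18.5 and 38.7 CPM (0.479, 0.346 to 0.656), on 58 and 139 UMIs. Cenpe, the kinetochore motor, had 89.2 and 148 CPM, Nusap1, which bundles spindle microtubules, 103 and 169 CPM, and Prc1, which bundles the central spindle, 136 and 219.8 CPM. Mki67 had 248 and 392 CPM, and Ndc80, which joins the kinetochore to microtubules, 26.5 and 45.1 CPM. These 8 were the members below the 1.5-fold limit, and Hmmr (73.2 against 113 CPM, log2 ratio -0.57) lay just outside it.

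Other members, the entry kinases among them, were lower by less. Cdk1 had 474 UMIs in hypoxia and 719 in control (ratio 0.757, log2 ratio -0.38), Ccnb1 81.8 and 118 CPM (-0.48), Plk1 46.0 and 61.2 CPM (-0.35) and Top2a 596 and 796 CPM (-0.41). Ccnb2 had 103 and 114 CPM, Cdc20 95.5 and 103 CPM, and Aurka 31.0 and 38.7 CPM, and the interval of each of these 3 included a ratio of 1. The least different were Ect2, which triggers the cleavage furrow (52.4 against 50.9 CPM), the checkpoint gene Mad2l1 (87.2 against 87.6 CPM) and Cks1b (177 against 184 CPM). By role the lowest ratios were 0.696 (0.659 to 0.736) for the 9 spindle and kinesin motor genes and 0.705 (0.667 to 0.745) for the 7 centromere and kinetochore genes. The 4 chromosome structure genes (0.717, 0.691 to 0.744) and the 4 cytokinesis genes (0.719, 0.660 to 0.783) lay close to these, with overlapping intervals. The highest were 0.790 for the 11 entry kinases and phosphatases and 0.823 for the 7 genes of the checkpoint and the anaphase-promoting complex.

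Genes of the neighbouring phases in the same class were set beside the members. Another 76 genes of G2 and mitosis summed to 6155 CPM in hypoxia and 7689 CPM in control (ratio 0.800, 0.786 to 0.815). Of these 76, 2 were lower by 1.5-fold, close to the 2.02% of all genes that were, and 0 were higher, where 2.13% were. The lowest were Kif18b (19.8 against 35.9 CPM) and Hmgb2 (1152 against 1764 CPM). The 45 S phase genes summed to 5594 and 4993 CPM (1.12, 1.097 to 1.144), with 2 higher by 1.5-fold (2.13% of all genes) and 0 lower (2.02%). These 2 were Tipin, which steadies the replication fork (106 against 65.9 CPM), and the chromatin assembly gene Chaf1b (62.9 against 35.6 CPM). In this class the S phase and mitotic sums thus lay on opposite sides of 1.

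Over single cells the distance in CPM was widest in the upper range. With each cell thinned to 5000 UMIs, the median HSC/MPP cell had 2200 CPM of members in hypoxia (221 cells) and 2400 CPM in control (209 cells), while the 90th percentile was 10200 CPM in hypoxia and 15520 CPM in control. The 25th percentile was 1000 CPM in both libraries. Without thinning the median cell had 1816 CPM in hypoxia and 2430 CPM in control, so the middle cells differed as well. The thinned medians rest on few UMIs per cell and move in coarse steps.

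The class was mixed, and its lower level held in both parts of a split by granule protease genes. Cells with at least 20 UMIs per 10000 of Elane, Prtn3, Mpo and Ctsg, 125 in hypoxia and 98 in control, had 4973 and 5989 CPM of members (ratio 0.830). The remaining 103 and 114 cells had 4617 and 7472 CPM (0.618). Among cells with at least 4 Hlf UMIs per 10000 the ratio was 0.620 (4782 against 7709 CPM), and among those with less it was 0.804. Among all 6280 hypoxia and 3914 control cells kept, 211 and 175 lay within 1.5-fold of the Hlf limit, on either side of it. These include cells outside the class, so they are not a share of it. Doubling or halving the gate minimums moved the summed log2 ratio from -0.43 to -0.64 or -0.27. The count of lower members moved from 8 to 19 or 3. 

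Markers of other cell types differed in the class too. The 7 granulocyte progenitor markers were all higher in hypoxia and summed to 8855 CPM there and 7751 CPM in control, and the 5 lymphoid-primed markers, also all higher, summed to 379.6 and 296 CPM. Of the 6 basophil markers 3 were higher and 3 lower in hypoxia, with Cpa3 at 159 and 75.1 CPM but Gata2 at 168 and 259.6 CPM and Ms4a2 at 6.39 and 16.4 CPM, and the list summed to 428 and 403 CPM. The part of these markers in the result was not tested.

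Granulocyte progenitors, gated by Elane, Prtn3, Mpo and Ctsg, showed a smaller difference in the same direction. Their members summed to 5270 CPM in hypoxia and 6138 CPM in control (ratio 0.859, 0.847 to 0.871). Of the 42 members 3 were lower by 1.5-fold, where 1.35% of all genes were, and 0 were higher, where 1.29% were. These 3 were Cenpf (66.8 against 113 CPM), Cenpe (87.3 against 137 CPM) and Kif2c, a kinesin that removes tubulin from microtubule ends (27.4 against 46.2 CPM). The count was 1 when each cell was given equal weight, without the cell with the most member UMIs in each library, with thinned cells, with the stricter cell filter and with gate minimums doubled.

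The other named members of that class differed by less. Mki67 had 232 CPM in hypoxia and 281 CPM in control, Top2a 556 and 656 CPM, Cdk1 188 and 217 CPM and Ccnb1 88.8 and 106 CPM. Aurka had 38.9 and 47.9 CPM, Ccnb2 86.7 and 93.8 CPM, and Plk1 66.6 and 69.4 CPM. The highest log2 ratios were those of Anln (52.1 against 43.7 CPM, 0.21), Ect2 (54.9 against 49.2 CPM, 0.13) and Cdc20 (105 against 100.4 CPM, 0.06). The median thinned cell had 3400 CPM of members in hypoxia and 4400 CPM in control. S phase genes summed to 5492 and 5130 CPM (ratio 1.07, 1.055 to 1.086).

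In the monocyte class, gated by Irf8, Csf1r, Ccr2 and Ly86, the members were higher in the hypoxia library. They summed to 7900 CPM in hypoxia and 6427 CPM in control (ratio 1.23, 1.215 to 1.243). A log2 ratio above 0 was found for 40 of 42, where 55.0% of all genes had one. The median was 0.33 against 0.029 over the 10667 genes tested. Of the 42 members 5 were higher by 1.5-fold, where 2.46% of all genes were, and 0 were lower, where 1.56% were. Cenpa (254 against 154 CPM, ratio 1.65), Ube2c (470.3 against 288 CPM, 1.63) and Nek2, a centrosome kinase (58.3 against 33.7 CPM, 1.73), were highest, and Cdc20 (133 against 82.8 CPM, 1.61) and Anln (78.5 against 47.8 CPM) were also past that limit.

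The genes of the spindle checkpoint and the anaphase-promoting complex summed to 1096 CPM in hypoxia and 767 CPM in control (ratio 1.43, 1.383 to 1.476). Ube2c, of that complex, held the largest part of the difference. The 4 cytokinesis genes summed to 525 and 379 CPM (1.39, 1.323 to 1.451). Plk1 had 113 and 73.4 CPM, Mki67 513 and 402 CPM, Top2a 945 and 828 CPM, Ccnb1 128 and 99.9 CPM, Ccnb2 124 and 98.5 CPM and Cdk1 240.3 and 198 CPM. Aurka had 60.2 and 53.4 CPM with an interval that included 1. The lowest members were Cenpf (123 against 144 CPM), Smc4 (552 against 604 CPM) and Smc2 (269 against 266 CPM). S phase genes were nearly level, at 6204 and 6107 CPM (ratio 1.02, 1.004 to 1.028).

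The makeup of the monocyte class moved with this result. Cells with at least 20 granule protease UMIs per 10000 made up 63.8% of it in hypoxia and 80.1% in control, and those without had the higher member level in each library. Within the protease-bearing cells the members summed to 7294 CPM in hypoxia and 5953 CPM in control (ratio 1.23, 1.210 to 1.241). Within the others they summed to 10014 and 9369 CPM (1.07, 1.043 to 1.095), from 350 hypoxia and 50 control cells. Weighting both parts alike gave a log2 ratio of 0.19 in place of 0.30.

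Basophil-lineage cells, gated by the proteases Prss34, Mcpt8 and Cpa3 and the receptor chain Ms4a2, were also higher in hypoxia. Members summed to 6927 CPM in hypoxia and 5650 CPM in control (ratio 1.23, 1.204 to 1.249), with 41 of 42 above 0, where 52.1% of all genes were. Of the 42 members 4 were higher by 1.5-fold, where 3.16% of all genes were, and 0 were lower, where 2.82% were. Cdc25b had 81.1 CPM in hypoxia and 41.8 CPM in control (1.94, 1.59 to 2.39), Kif4 43.2 and 24.3 CPM (1.78, 1.36 to 2.36) and Cenpa 249.9 and 159 CPM (1.58, 1.42 to 1.75), and Ect2 was also past that limit. Mki67 had 503 and 367 CPM, Top2a 864 and 676 CPM, Cdc20 115 and 75.6 CPM and Cdk1 181 and 137 CPM. Ccnb1 had 88.0 and 71.4 CPM, Ccnb2 124 and 93.1 CPM and Plk1 80.8 and 59.4 CPM, while the interval of Aurka (33.6 against 30.6 CPM) included a ratio of 1. The lowest were Cks2 (557 against 622 CPM), Prc1 (149.5 against 148 CPM) and Smc4 (485 against 462 CPM).

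That ratio also moved with the mix of cells. Cells with at least 30 Cpa3 UMIs per 10000 made up 62.7% of the class in hypoxia and 42.4% in control, and had 7784 and 6406 CPM of members (ratio 1.22, 1.188 to 1.243). Cells below had 4554 and 4780 CPM (0.953, 0.921 to 0.985), the other direction. The median thinned cell had 6700 CPM in hypoxia and 1800 CPM in control, and 452 of 695 hypoxia and 196 of 302 control cells were deep enough to be thinned. S phase genes summed to 4369 and 3773 CPM (1.16, 1.132 to 1.184), so here, unlike in the HSC/MPP class, the sums of both phases lay above 1.

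**Figure D5:**
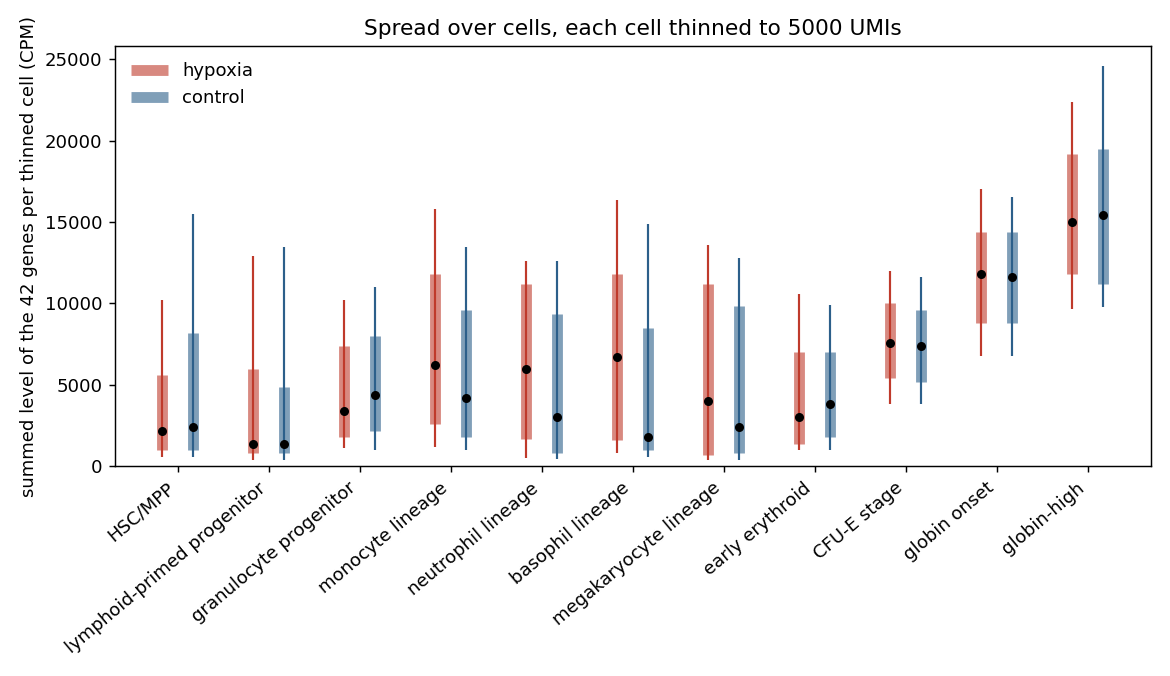
Summed level of the 42 genes per cell after thinning to 5000 UMIs (y axis, CPM) in 11 classes (x axis), hypoxia left of control. Black dots are medians over cells, thick bars the 25th to 75th percentiles and thin lines the 10th to 90th. In the HSC/MPP class the 90th percentile was 10200 CPM in hypoxia and 15520 CPM in control, and in the basophil class the median was 6700 and 1800 CPM.

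The remaining classes gave less. Lymphoid-primed progenitors, gated by Dntt, had 5362 CPM of members in hypoxia and 5507 CPM in control (ratio 0.974, 0.945 to 1.004), with 2 of 41 measured members higher (3.92% of all genes) and 1 lower (2.67%). Cenpf was the lower one, at 87.8 CPM in hypoxia and 186 CPM in control, and the higher were Cdc20 (102 against 63.3 CPM) and Nek2 (45.6 against 26.3 CPM, on 81 and 37 UMIs). Mad2l1 came next among the high ones (94.0 against 66.2 CPM), and Smc4 (396 against 539 CPM) and Aurka (33.2 against 47.0 CPM) were lowest after Cenpf.

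The other named members of that class differed by less. Mki67 had 323 CPM in hypoxia and 388 CPM in control, below control with an interval that left out 1. Top2a had 787 and 833 CPM, Cdk1 145 and 127 CPM, Ccnb1 81.1 and 81.1 CPM, Ccnb2 107 and 114 CPM and Plk1 54.0 and 51.2 CPM, each with an interval that included 1. Myeloid markers were far apart in the class. The 7 granulocyte progenitor markers were all higher in hypoxia and summed to 1938 CPM there and 1304 CPM in control, with Elane at 169 and 6.40 CPM, Prtn3 at 396 and 135 CPM and Ms4a3 at 41.1 and 0.712 CPM. Of the 6 monocyte markers 4 were higher in hypoxia, with Ly6c2 at 94.6 and 4.27 CPM, and they summed to 779.8 and 558 CPM. The part of these markers in the members' values was not tested. Halving the gate minimums gave a summed log2 ratio of 0.10 in place of -0.038.

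Megakaryocyte-lineage cells had 6267 CPM of members in hypoxia and 5956 CPM in control (ratio 1.05, 1.026 to 1.079), from 73 and 122 cells. No measured member of 41 was past 1.5-fold, where 3.07% of all genes were higher and 2.84% lower. Cenpa (207 against 142 CPM), Ttk, the kinase that starts the spindle checkpoint (58.2 against 39.6 CPM), and Kif20a, a kinesin of cytokinesis (47.8 against 33.7 CPM), were highest. Ndc80 (30.4 against 43.3 CPM), Smc4 (442 against 549 CPM) and Aurka (37.5 against 48.3 CPM) were lowest. Mki67 had 344 CPM in hypoxia and 333 CPM in control, Top2a 529 and 492 CPM, Cdk1 278 and 285 CPM, Ccnb1 132 and 132 CPM and Ccnb2 136 and 125 CPM, each with an interval that included 1. Cdc20 (128 against 104 CPM) and Plk1 (103 against 78.0 CPM) had intervals above 1.

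Neutrophil-lineage cells were few and shallow, with 130 hypoxia and 81 control cells and median depths of 2935 and 4351 UMIs. Their members summed to 3805 CPM in hypoxia and 5063 CPM in control (ratio 0.752, 0.710 to 0.795). Of the 31 measured members 11 were lower (8.34% of all genes) and 1 was higher (10.1%). The higher one was Ccnb1, at 67.0 CPM in hypoxia and 34.9 CPM in control, on 38 and 19 UMIs, followed by Cdc20 (61.7 against 49.6 CPM) and Cenpa (143 against 118 CPM). Aurkb (35.3 against 93.7 CPM), Cenpe (42.3 against 105 CPM) and Cdk1 (127 against 244 CPM) were lowest. Mki67 had 305 CPM in hypoxia and 400.4 CPM in control, Top2a 375 and 406 CPM, Ccnb2 88.1 and 79.0 CPM and Plk1 65.2 and 86.3 CPM. Aurka had too few UMIs there to count as measured, 19 in hypoxia and 16 in control. In the 26 hypoxia and 34 control cells that could be thinned, the summed log2 ratio was 0.31 in place of -0.41. Other markers differed in this class too. All 7 granulocyte progenitor markers were lower in hypoxia, with Elane at 1962 CPM against 4173 CPM in control. All 6 basophil markers were higher, with Mcpt8 at 927 and 22.0 CPM. Of the 11 erythroid markers 7 were higher in hypoxia and 4 lower, Hba-a1 among the lower at 58.2 and 1286 CPM. The part of these markers in the members' values was not tested.

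Across the 11 classes a few members kept 1 direction more often than the others. Cenpf was below 0 in 10 of 11 classes and lower by 1.5-fold in 6. Smc4 was above 0 in 1 of 11, the basophil class, and Smc2 in 2 of 11. Aurka was above 0 in 2 of the 10 classes where it was measured. Ect2 was above 0 in each of 9 classes where it was measured, and Anln and Kif20a in 9 of 10. These are counts over classes that share the same pair of libraries, so they are not independent of each other. The members named were picked after their values were seen. The share of all genes that kept 1 direction as often was not worked out, so the counts do not set these members apart from other genes.

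Within CFU-E cells the members could be ordered by how strongly they followed the rest of the list. Cells thinned to 5000 UMIs were ranked by the sum of the other 41 members, and each member's level in the top 25% of cells was set over that in the bottom 25%, 522 cells at each end in hypoxia and 438 in control. The split is part of the list itself, so the ratios describe an order and test nothing. Nusap1 had 252 CPM in the top and 27.2 CPM in the bottom cells in hypoxia (9.25 times) and 218 and 34.2 CPM in control (6.36 times). Ube2c had 800.4 and 94.6 CPM in hypoxia (8.46 times) and 650.2 and 85.4 CPM in control (7.61 times), and the cytokinesis kinesin Kif23 7.29 times in hypoxia and 7.81 times in control.

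Other members followed it less. Cks1b had 282 CPM in the top and 197 CPM in the bottom cells in hypoxia (1.43 times) and 247 and 190.0 CPM in control (1.30 times). Cenpa had 575 and 375 CPM in hypoxia (1.53 times) and 425 and 326 CPM in control (1.31 times), and Mad2l1 differed 1.60 times in hypoxia and 1.31 times in control. Mki67, the usual proliferation marker, differed by 1.75 times in hypoxia and 1.89 times in control in these cells, against 20.1 times in hypoxia and 42.7 times in control in the HSC/MPP class, where each end held 55 and 52 cells. Cenpa, too, differed by 13.9 times in hypoxia and 15.3 times in control there. These HSC/MPP ratios are imprecise, since the bottom cells held 8 and 6 UMIs of Mki67 and 8 and 8 of Cenpa in hypoxia and control. In granulocyte progenitors Mki67 differed by 28.5 and 7.21 times and Cenpa by 14.3 and 11.6 times, also on few bottom UMIs. Mki67 and Cenpa thus had wider ratios in both of these classes than among CFU-E cells. This was not particular to members with small ratios there. In hypoxia, Ube2c differed by 24.3 times in HSC/MPP cells and 50.8 times in granulocyte progenitors, on 7 and 6 bottom UMIs. Cks1b differed by 6.27 and 2.68 times.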

How the data were processed

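The deposited values are raw UMI counts per cell and gene. Per the file headers, the authors used version 1.7.1 of the BD WTA Rhapsody Analysis Pipeline, with GENCODE vM19 genes on GRCm38. The submitters' processing notes also list Bowtie2. The sources used here do not state how cells were called. Genes without a column in 1 table counted as 0 in it.

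Cells with at least 500 UMIs, 200 genes and under 20% mitochondrial UMIs were kept, which removed 14 hypoxia and 6 control cells. Scrublet in scanpy 1.11.5 (automatic threshold, seed 0) removed 112 hypoxia (1.75%) and 36 control cells (0.911%) as doublets, called per library. Cells entered the first of 14 ordered gates whose markers passed a minimum per 10000 UMIs. The minimums were set after marker levels were seen. Erythroid cells (Klf1, Rhag and Ermap) were split by globin at 10 and 100 UMIs per 10000, and those below 10 by Gata2 at 1. No gate took 25 hypoxia and 20 control cells, and classes too small to describe were left out.

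Since each group had 1 library, values were compared without a test. Ratios have exact conditional binomial 95% intervals and sums exact Poisson ones. Both cover counting error only. Thinning drew 5000 UMIs per cell and left out 537 hypoxia and 301 control cells. The ratio and its interval were also run on simulated Poisson counts. These hold no variation between cells or mice, so they check the calculation only. Python 3.11.15, numpy 2.4.6, scipy 1.17.1, pandas 2.3.3, and edgeR 4.0.16 in R 4.3.3 (TMM factors only) were used.

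The members and lists were chosen with earlier results of these data known. Named in each of the 11 classes were Mki67, Top2a, Cdk1, Ccnb1, Ccnb2, Cdc20, Plk1 and Aurka and the 3 members with the highest and the 3 with the lowest log2 ratio. Others named were chosen for their role or after their values were seen. Gene positions come from GENCODE annotation of GRCm38, and promoters from RefSeq (GRCm38.p6).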

Additional observations from a re-analysis of the deposited data

Results flagged for a closer look

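The summed members lay on opposite sides of 0 in different classes under the same contrast. Hypoxia over control, the log2 ratio was above 0 in the monocyte lineage (0.30), the basophil lineage (0.29), the megakaryocyte lineage (0.073), the CFU-E stage (0.061) and globin onset (0.029). It was below 0 in the HSC/MPP class (-0.43), the granulocyte progenitors (-0.22), the neutrophil lineage (-0.41), the early erythroid cells (-0.044) and the globin-high cells (-0.020). Of single members, Cdc25b was past 1.5-fold in opposite directions, at 0.81 in the basophil lineage and -0.77 in the HSC/MPP class. With 1 library a group, each class gives 1 difference, and the difference between classes was not tested.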

How the results depend on the processing

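Of the alternatives to the summed log2 ratio, 64 stayed within its counting interval, 42 moved outside it and 10 were counted as turning its direction. In lymphoid-primed cells, where the main interval included a ratio of 1, changes of sign were counted among the 42. There the log2 ratio went from -0.038 to 0.0080 without the top cell and to 0.10 with gate minimums halved. The monocyte (0.19 to 0.35), basophil (0.11 to 0.52), HSC/MPP (-0.64 to -0.27) and granulocyte progenitor (-0.25 to -0.13) sums kept their direction under every alternative run, as did the megakaryocyte sum (0.018 to 0.25). The cause of each move was not tested. No paired analysis was possible because each group has 1 library.

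With each cell weighted alike the summed log2 ratio was -0.49 in HSC/MPP, 0.35 in monocyte, -0.53 in neutrophil, 0.33 in basophil, 0.25 in megakaryocyte, -0.014 in early erythroid, 0.069 in CFU-E and -0.12 in globin-high cells. With thinned cells it was -0.47 in HSC/MPP, -0.19 in granulocyte progenitor, 0.35 in monocyte, 0.31 in neutrophil, 0.52 in basophil, 0.16 in megakaryocyte, 0.016 in globin onset and -0.082 in globin-high cells. With gate minimums doubled it was -0.64 in HSC/MPP, -0.083 in lymphoid-primed, -0.13 in granulocyte progenitor, -0.57 in neutrophil, 0.34 in basophil, 0.13 in early erythroid, 0.014 in globin onset and -0.14 in globin-high cells. With them halved it was -0.27 in HSC/MPP, 0.10 in lymphoid-primed, -0.20 in granulocyte progenitor, 0.037 in megakaryocyte, 0.034 in early erythroid, 0.047 in CFU-E, -0.010 in globin onset and 0.0087 in globin-high cells. With TMM factors it was -0.25 in granulocyte progenitor, 0.018 in megakaryocyte, -0.17 in early erythroid, -0.054 in CFU-E, -0.017 in globin onset and -0.043 in globin-high cells. With the stricter cell filter it was 0.32 in monocyte, -0.14 in neutrophil, 0.35 in basophil and 0.0046 in globin-high cells. With no cell filter or with doublets kept it was -0.26 in neutrophil and 0.045 in early erythroid cells. Without the cell with the most member UMIs in each library it was 0.0080 in lymphoid-primed cells. Splits by protease genes or Cpa3 with both parts weighted alike, chosen after seeing the data, gave -0.48 in HSC/MPP, -0.24 in granulocyte progenitor, 0.19 in monocyte, -0.28 in neutrophil and 0.11 in basophil cells.

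The count of members lower by 1.5-fold in HSC/MPP was 19 with gate minimums doubled and 3 with them halved. In granulocyte progenitors it was 1 with the stricter filter, cells weighted alike, the top cell left out, thinned cells or doubled minimums. At the CFU-E stage it was 1 in place of 0 with TMM factors, doubled or halved minimums, or 1 CPM added. With thinned neutrophil-lineage cells 5 single members turned: Birc5 (0.71), Cdk1 (0.22), Nusap1 (0.15), Tpx2 (0.55) and Kif20b (0.13). Depth limits the neutrophil class most, since 26 hypoxia and 34 control cells could be thinned.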

Other observations

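Small classes outside the comparisons held members too. Megakaryocyte-erythroid progenitors, gated by Gata2 and Slc18a2, had 5777 CPM of members in 75 hypoxia cells and 5507 CPM in 178 control cells (ratio 1.05, 1.012 to 1.087). T, NK and innate lymphoid cells had 2968 CPM in 109 hypoxia cells and 4496 CPM in 87 control cells (0.660, 0.611 to 0.713), and eosinophil-lineage cells had 2800 CPM in 70 hypoxia cells and 2285 CPM in 19 control cells (1.23, 1.103 to 1.363). The S phase gene Tipin was among the 3 highest S phase genes of hypoxia over control in 10 of the 11 classes, all but the neutrophil lineage, for example at 288 against 176 CPM in globin-high cells. Pkmyt1, the kinase that holds Cdk1 inactive, was among the 3 highest of the 76 other G2 and mitosis genes in 7 of the 11, at 72.2 against 42.2 CPM in monocyte-lineage cells.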
